A study of Sus scrofa with 6 samples.

Results

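Aminoacyl-tRNA synthetases are the enzymes that load each transfer RNA with its amino acid. The genes described here are the rows of a porcine RNA-seq table whose gene name is a one-letter amino acid code followed by ARS, ARS1 or ARS2, together with the named rows of EPRS, EARS2, FARSA and FARS2 and of the scaffold proteins AIMP1 and AIMP2. The rule took 37 of 18007 rows, of which 35 were synthetases and 2 were scaffolds. It used names only and no measured value. The table gives FPKM, fragments scaled to the length of the gene model and to the depth of the library. Levels of different genes thus also depend on the length given to each model. The ratio of a gene between libraries does not.

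PEFs are porcine embryonic fibroblasts, grown from the ear tips of fetuses at embryonic day 90, and their lines carry the names PEF5, PEF7 and PEF8. The piPSCs are porcine induced pluripotent stem cells (piPSC5, piPSC7 and piPSC8), each derived from the like-numbered PEFs with a lentiviral, doxycycline-inducible vector for Oct4, Sox2, Klf4 and c-Myc (TetO-FUW-OSKM) and a second vector for the doxycycline-responsive activator (FUW-M2rtTA). They remained dependent on doxycycline, and their colonies were moved onto mouse embryonic fibroblast feeders. Each line in each state was 1 library, so n = 3 per group, the reprogrammed state, its medium and its feeders cannot be told apart, and p-values measure the spread between lines.

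Each cytosolic synthetase serves the ribosomes that read nuclear messages, and a second, nuclear-encoded enzyme usually serves the ribosomes inside mitochondria. Several cytosolic synthetases sit in a large multisynthetase complex held together by AIMP1, AIMP2 and EEF1E1, while the others work free in the cytosol. Many cytosolic synthetase genes are known targets of ATF4, the transcription factor of the integrated stress response, which is switched on when uncharged transfer RNA or other stresses lead to phosphorylation of the initiation factor eIF2.

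The libraries held 11010629 to 17836510 fragments, recovered from the FPKM steps. The 9 fibroblast markers examined were all lower in piPSCs, with a summed level of 4418 to 6405 FPKM in PEFs and 130 to 221 FPKM in piPSCs. Of the 7 pluripotency markers found in the table, 5 stayed under 1 FPKM in every piPSC library, POU5F1 and NANOG among them, and SOX2 and LIN28B reached 3.01 and 8.9 FPKM at most. Of the 6 epithelial markers, 5 were under 1 FPKM in every library and CLDN6 read 16.6, 11 and 36.2 FPKM in PEFs and 1.43, 7.55 and 0.365 FPKM in piPSCs. CLDN6 was called lower (adjusted p = 0.0206), but not under a replicate block by line (adjusted p = 0.0542) or without PEF replicate 5, PEF replicate 8 or piPSC replicate 5. DDX3Y, a gene of chromosome Y, had 3439 and 4207 fragments in the libraries of line 8 and 0 in those of lines 5 and 7, although the study describes all lines as male, so counts are also given with each line left out. What these differences contribute to the synthetase values was not tested. In such bulk RNA, fewer cells of a type and less RNA per cell cannot be told apart.

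Synthetase mRNA was broadly higher after reprogramming. Of the 37 rows, 36 had a mean of at least 0.5 FPKM over the 6 libraries and were tested with limma on log2(FPKM + 1), and 25 of these were higher in piPSCs and 0 lower at an adjusted p under 0.05. Over all 12428 tested genes, 30.3% were higher and 21.5% lower. These shares are the background only for the list counts below that come from this fit, and other settings have other shares. At an unadjusted p under 0.05 the members also gave 25 higher and 0 lower, and limma's voom on the recovered fragments gave the same 25 and 0. All tested genes gave 4284 higher and 3041 lower at the unadjusted p, and 3752 and 2613 with voom. At least a 2-fold increase was called for 20 of the 36 members, against 20.2% of all tested genes. The median log2 fold change of the members was 1.01, and that of all tested genes was 0.20.

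**Figure D1:**
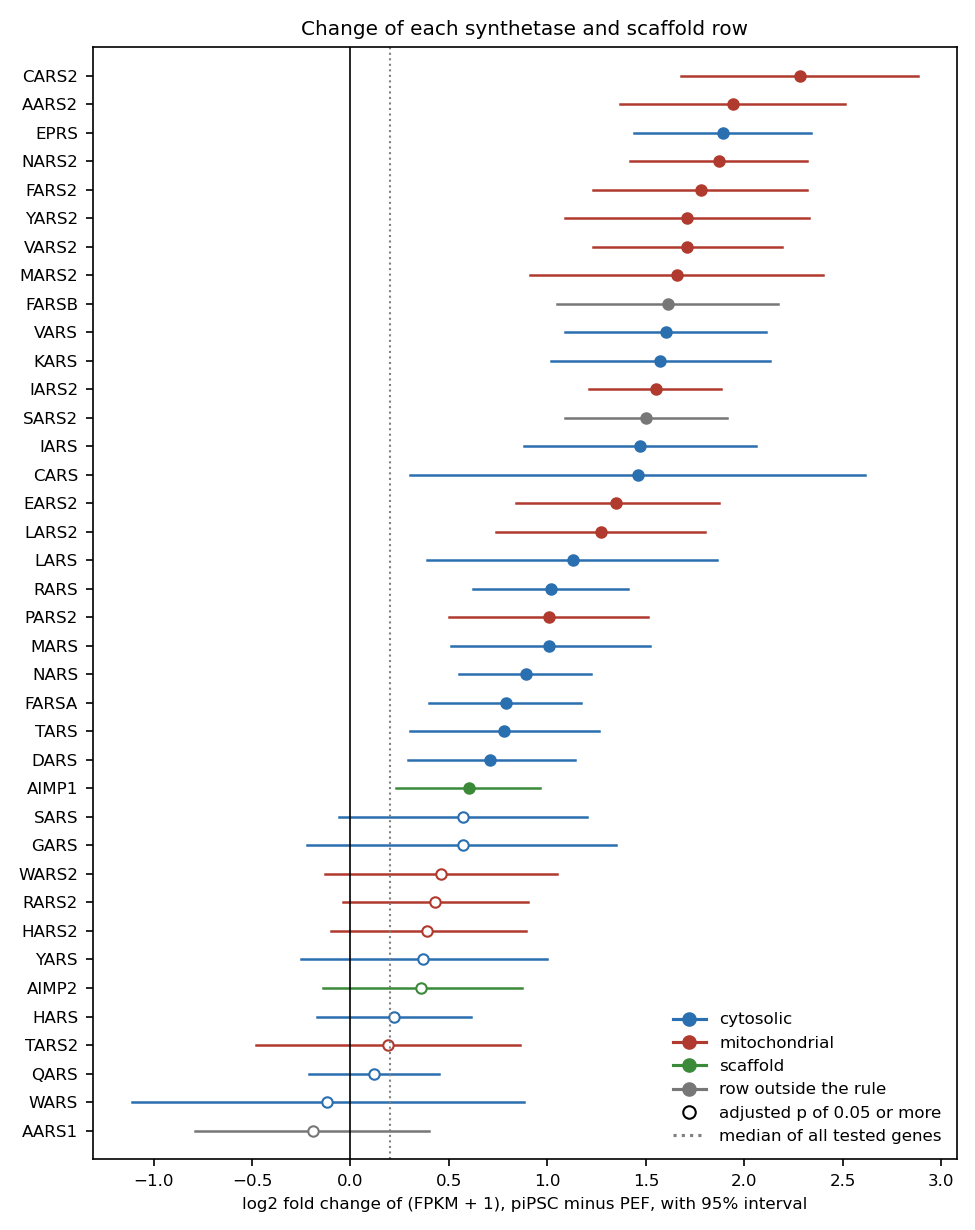
Log2 fold change of (FPKM + 1), piPSC minus PEF, with its 95% interval from limma, for 35 of the 36 tested members and for 3 further synthetase rows that the rule does not take (grey). Filled points have an adjusted p under 0.05. All members shown but WARS lie to the right of 0, and 7 of the 8 largest increases among the members are mitochondrial (red).

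In 28 of the 36 members all piPSC values lay above all PEF values, which held for 37.3% of tested genes. The 25 called members were among these 28, and RARS2, HARS2 and AIMP2 were the others. Set against its own PEF line, each piPSC line had the higher level for 32 of 36 members (42.9% of tested genes) and at least a 2-fold higher level for 12 (12.8%). The median log2 ratio of the members was 0.73 in line 5, 0.87 in line 7 and 1.40 in line 8, where the medians of all tested genes were 0.21, 0.24 and 0.08. By this median, line 8 changed most. Without line 5, line 7 or line 8, 17, 21 and 18 members were called higher and 0 lower. Of all 12428 tested genes, 1768, 2600 and 2935 were then higher and 1308, 1995 and 2220 lower.

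The FPKM values of all genes summed to 337074 to 348943 in PEFs and 420498 to 437853 in piPSCs, so the scale of the libraries enters every comparison. When each library was rescaled to the median ratio over genes, 20 members were higher and 0 lower, beside 22.7% of all tested genes higher and 26.2% lower. With equal sums per library, the counts were 19 and 0, beside 21.1% and 27.2%. The median of all tested genes then moved to -0.01 and -0.06, and the median of the members to 0.76 and 0.77. AIMP1, CARS, DARS, LARS and TARS lost their call under both rescalings, and FARSA under equal sums.

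Most mitochondrial synthetases were higher after reprogramming. All 16 were tested and 12 were higher in piPSCs, each at least 2-fold, with a median log2 fold change of 1.51. The 12 calls stood under both rescalings and without any single library, and 10, 12 and 11 stood without lines 5, 7 and 8. Their summed level was 67.7 ± 5.43 FPKM in PEFs and 196 ± 25.5 FPKM in piPSCs (mean ± SD, n = 3 each), 2.9 times as high. Mean levels per gene ran from 0.962 FPKM (YARS2) to 9.35 FPKM (IARS2) in PEFs and from 5.5 FPKM (YARS2) to 32.2 FPKM (CARS2) in piPSCs.

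CARS2, the mitochondrial cysteinyl-tRNA synthetase, had the largest change of all members on the log2(FPKM + 1) scale (ENSSSCG00000031757, chr11:77230950-77265235, minus strand). By the ratio of mean FPKM, CARS2 at 5.34 came after AARS2 at 5.82 and YARS2 at 5.72. It stood at 5.2, 8.57 and 4.28 FPKM in PEF5, PEF7 and PEF8 and at 28.8, 31.4 and 36.3 FPKM in piPSC5, piPSC7 and piPSC8. The groups were far apart, and the log2 fold change was 2.28 (SE 0.25, adjusted p = 0.000858). AARS2, which charges alanine in mitochondria, read 1.33, 1.27 and 1.87 FPKM in PEFs and 7.79, 6.91 and 11.3 FPKM in piPSCs (log2 fold change 1.94, SE 0.24, adjusted p = 0.00122). NARS2, the asparagine enzyme, read 3.32, 2.56 and 2.72 FPKM in PEFs and 11.2, 13.7 and 14.7 FPKM in piPSCs (log2 fold change 1.87, SE 0.19, adjusted p = 0.000659). Both genes were narrowly spread within a group and had no overlap between groups.

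FARS2, the single-chain mitochondrial phenylalanine enzyme, read 2.81, 2.49 and 1.53 FPKM in PEFs and 10.1, 11.5 and 8.77 FPKM in piPSCs (log2 fold change 1.78, SE 0.23, adjusted p = 0.00138). YARS2, the tyrosine enzyme, was the lowest mitochondrial synthetase in both groups, at 1.28, 0.65 and 0.961 FPKM in PEFs and 5.15, 4.1 and 7.26 FPKM in piPSCs. Its log2 fold change was 1.71 (SE 0.26, adjusted p = 0.00255), and the ratio of its mean FPKM was 5.72, since adding 1 FPKM before the logarithm understates the change of a gene this low. Its gene model overlaps DNM1L on the opposite strand over 63.4% of its span, and DNM1L stood at 4.37 to 7.15 FPKM in PEFs and 9.81 to 15.3 FPKM in piPSCs.

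VARS2, the valine enzyme, read 1.81, 1.73 and 1.69 FPKM in PEFs and 9.24, 6.38 and 8.52 FPKM in piPSCs (log2 fold change 1.71, SE 0.20, adjusted p = 0.00106). Its model in the table covers 144725 bases, where RefSeq gives 12043 bases for the gene, and how much the genes in between add to its values was not tested. MARS2, the methionine enzyme, read 3.32, 2.21 and 3.45 FPKM in PEFs and 13.2, 7.15 and 15.8 FPKM in piPSCs (log2 fold change 1.66, SE 0.31, adjusted p = 0.00556). Line 7 was the lowest of its group in both states, and piPSC7 still lay above every PEF library. IARS2, EARS2, LARS2 and PARS2 also rose, with log2 fold changes from 1.01 to 1.55. The call of MARS2 was lost without line 5, and that of PARS2 without line 5 or line 8.

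WARS2, RARS2, HARS2 and TARS2 were the 4 mitochondrial members that did not pass the test, with log2 fold changes of 0.46, 0.43, 0.39 and 0.19. RARS2, the arginine enzyme, read 8.94, 6.99 and 6.81 FPKM in PEFs and 9.79, 9.28 and 12.8 FPKM in piPSCs (adjusted p = 0.106). TARS2, the threonine enzyme, read 7.24, 4.13 and 7.97 FPKM in PEFs and 8.19, 5.56 and 8.31 FPKM in piPSCs (adjusted p = 0.592), and its groups overlapped. After both rescalings its log2 fold change was -0.05 and -0.10. The TARS2 model shares 84.8% of its span with ECM1 on the same strand, a matrix protein gene that stood at 54.5, 71 and 200 FPKM in PEFs and at 3.98, 0.311 and 0.432 FPKM in piPSCs. How reads shared by such models were counted is not given in the sources used here, and the part of ECM1 in the TARS2 values was not tested.

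**Figure D2:**
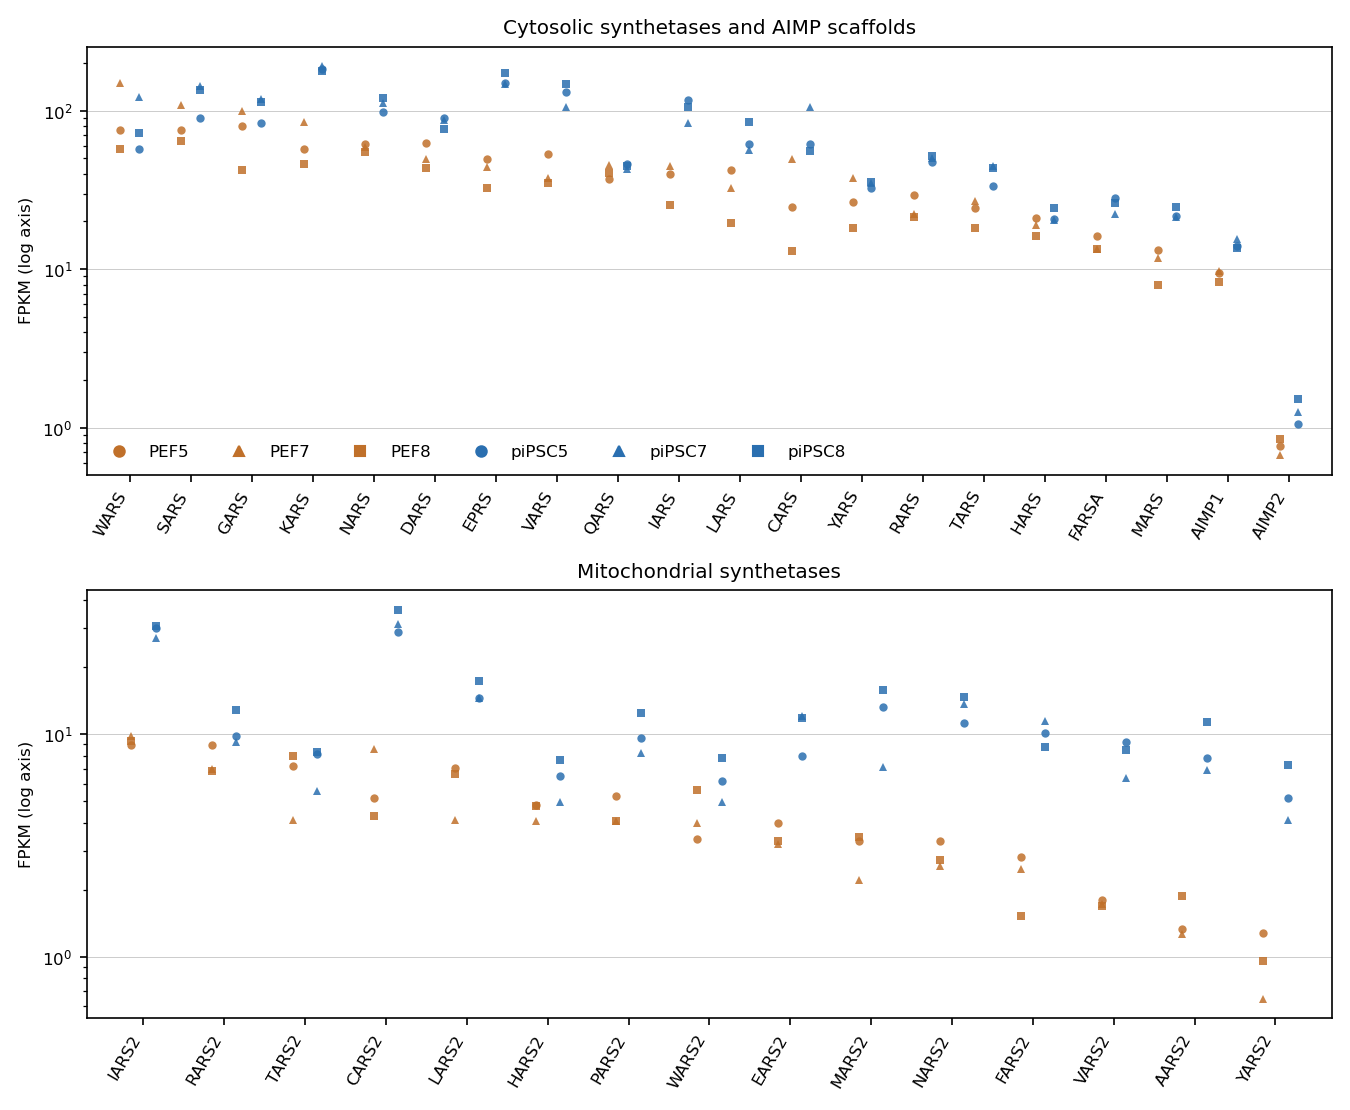
FPKM (log axis) of 35 of the 36 tested members in each library, PEFs in orange to the left and piPSCs in blue to the right of each gene, with a circle for line 5, a triangle for line 7 and a square for line 8. The upper panel holds the cytosolic enzymes and the AIMP scaffolds, the lower panel the mitochondrial enzymes, and genes are ordered by their mean in PEFs.

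Cytosolic synthetases were expressed at higher levels than the mitochondrial ones. Of 18 tested rows, 12 were higher, 8 of them at least 2-fold, with a median log2 fold change of 0.84. Their summed level was 789, 935 and 570 FPKM in PEF5, PEF7 and PEF8 and 1349, 1507 and 1513 FPKM in piPSC5, piPSC7 and piPSC8, 1.9 times as high on average. After rescaling to the median ratio or to equal sums, 8 and 7 were called, and without line 5 or line 8, 7 and 7. Mean levels ran from 10.9 FPKM (MARS) to 93.8 FPKM (WARS) in PEFs and from 21.9 FPKM (HARS) to 183 FPKM (KARS) in piPSCs. The highest of the group in PEFs was thus not the highest in piPSCs.

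Among the genes of the multisynthetase complex, 8 of 10 tested members were higher, with a median log2 fold change of 1.01. EPRS, the joint enzyme for glutamate and proline (ENSSSCG00000010821, chr10:9579178-9648367, minus strand), read 49.5, 44 and 32.6 FPKM in PEFs and 149, 147 and 173 FPKM in piPSCs. It was the cytosolic member with the largest change, at a log2 fold change of 1.89 (SE 0.19, adjusted p = 0.000659), with no overlap between the groups. KARS, a gene whose products charge lysine in both compartments, rose from 62.8 ± 20.1 to 183 ± 5.9 FPKM (log2 fold change 1.57). IARS, LARS, RARS, MARS and DARS, which charge isoleucine, leucine, arginine, methionine and aspartate, rose by 1.47, 1.13, 1.02, 1.01 and 0.71 on the log2 scale. LARS missed the threshold under a replicate block by line (adjusted p = 0.0524). After either rescaling 5 of the 10 were called, and 5, 5 and 5 without lines 5, 7 and 8.

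The 2 complex members that did not pass were QARS and AIMP2. QARS, the glutamine enzyme, read 37.2, 45.5 and 40.2 FPKM in PEFs and 45.9, 43.1 and 44.6 FPKM in piPSCs (log2 fold change 0.12, 95% interval -0.21 to 0.45). That interval holds no 2-fold change either way, and the sign turned after rescaling (-0.15 and -0.20).

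Of the scaffolds, AIMP1 read 9.49, 9.74 and 8.35 FPKM in PEFs and 14.1, 15.6 and 13.6 FPKM in piPSCs (log2 fold change 0.60, SE 0.15, adjusted p = 0.0169), without overlap. AIMP2 read 0.771, 0.671 and 0.852 FPKM in PEFs and 1.05, 1.25 and 1.52 FPKM in piPSCs (log2 fold change 0.36, SE 0.21, adjusted p = 0.19). AIMP2 was the lowest of all tested members in both groups, with 53 to 79 fragments per library, and 99.2% of its model lies inside the model of ANKRD61 on the same strand, which stood at 0 to 0.15 FPKM. EIF2AK1 on the opposite strand overlaps 29.1% of it and stood at 11.9 to 12.8 FPKM in PEFs and 13.4 to 16.6 FPKM in piPSCs, and its part in the AIMP2 values was not tested. EEF1E1, the further scaffold of the complex and not taken by the rule, read 18.8, 15.4 and 7.78 FPKM in PEFs and 40.5, 40.2 and 39.5 FPKM in piPSCs (log2 fold change 1.53, SE 0.30, adjusted p = 0.00663). The piPSC lines were nearly level for EEF1E1 while the PEF lines differed.

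The free cytosolic synthetases gave 5 called of 10 tested, with a median log2 fold change of 0.67. VARS, the valine enzyme, rose from 42 ± 9.92 to 128 ± 20.8 FPKM (log2 fold change 1.60, SE 0.21, adjusted p = 0.00161). CARS, the cysteine enzyme, read 24.8, 49.5 and 13.1 FPKM in PEFs and 61.2, 106 and 56 FPKM in piPSCs (log2 fold change 1.46, SE 0.48, adjusted p = 0.0422). Its level differed widely between lines in both states, and its call was lost in 8 of 14 other settings. Against their own PEF lines, piPSC5, piPSC7 and piPSC8 had log2 ratios of 1.27, 1.09 and 2.01. With a replicate block by line, limma gave CARS an adjusted p of 0.0102. NARS, FARSA and TARS rose by 0.89, 0.79 and 0.78, and GARS and SARS stood at 0.57 and 0.57 without passing (adjusted p = 0.187 and 0.111).

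The remaining free enzymes lay at the low end. WARS, the tryptophan enzyme and a known interferon-responsive gene, was the only member with a negative estimate, at 75.2, 149 and 57.5 FPKM in PEFs and 57.5, 122 and 72 FPKM in piPSCs. The groups overlapped, the log2 fold change was -0.12 (95% interval -1.11 to 0.88), and without PEF replicate 7 it was 0.27. HARS, the histidine enzyme, read 20.9, 19 and 16.1 FPKM in PEFs and 20.8, 20.5 and 24.3 FPKM in piPSCs (log2 fold change 0.22, 95% interval -0.17 to 0.61), and the estimate turned to -0.04 and -0.09 after rescaling. YARS, the tyrosine enzyme, read 26.5, 37.7 and 18.1 FPKM in PEFs and 32.6, 34.9 and 35.6 FPKM in piPSCs (log2 fold change 0.37, adjusted p = 0.264). The alanine enzyme also belongs here.

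The row that the table names AARS (ENSSSCG00000040225, chr18:48488476-48496381, minus strand, inside SUN3 on the opposite strand) had 1 fragment in piPSC5, 1 in piPSC7 and 0 in the other libraries, at or under the 3 fragments that a count of 0 allows. It is the 1 member that was not tested. A row on chromosome 6 that the table lists by identifier only (ENSSSCG00000002723, chr6:13298698-13317903, minus strand) lies at the place where RefSeq puts AARS, and is called AARS1 here. It read 128, 150 and 88 FPKM in PEFs and 85.9, 102 and 129 FPKM in piPSCs (log2 fold change -0.19, 95% interval -0.79 to 0.40, adjusted p = 0.541). AARS1 was lower after reprogramming in lines 5 and 7 and higher in line 8, with log2 ratios of -0.57, -0.55 and 0.54. It was the highest cytosolic synthetase row in PEFs.

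FARSA and FARSB encode the subunits of the cytosolic phenylalanine enzyme, which needs both in equal number. FARSA read 16.1, 13.4 and 13.5 FPKM in PEFs and 28.1, 22.2 and 26.2 FPKM in piPSCs (log2 fold change 0.79, SE 0.16, adjusted p = 0.0077). FARSB is also listed by identifier only (ENSSSCG00000016226, chr15:124472219-124554990, minus strand), and read 33.2, 22.7 and 17.5 FPKM in PEFs and 74.2, 71.9 and 76.5 FPKM in piPSCs (log2 fold change 1.61, SE 0.23, adjusted p = 0.00222). The FPKM ratio of FARSB to FARSA was 2.07, 1.69 and 1.29 in PEFs and 2.64, 3.23 and 2.93 in piPSCs, so it was higher in every piPSC library than in any PEF library. The model lengths were 6429 bases for FARSA and 1953 bases for FARSB. In PEF5, FARSA had 1841 fragments and FARSB 1158, so the size of the ratio rests on these lengths, but its difference between groups does not. SARS2, the mitochondrial serine enzyme, is the third row listed by identifier and had a log2 fold change of 1.50 (SE 0.17, adjusted p = 0.000944). Another row (ENSSSCG00000031623) overlaps 100% of its span on the same strand. That row read 0 FPKM in each PEF library and 2.66, 2.24 and 0.605 FPKM in piPSC5, piPSC7 and piPSC8, and its part in the SARS2 values was not tested. With AARS1, FARSB and SARS2 added, 27 of 39 tested rows were higher and 0 lower.

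The cytosolic and the mitochondrial enzyme were set side by side for 14 amino acids for which both are members, and in 10 of them the mitochondrial gene had the larger log2 fold change. The widest gap in this direction was that of tyrosine, at 0.37 for YARS and 1.71 for YARS2, followed by phenylalanine and asparagine. The narrowest were those of histidine, leucine, valine and isoleucine, at 0.17, 0.14, 0.11 and 0.08. The phenylalanine pair rests on FARSA alone, and the other subunit, FARSB, had a log2 fold change of 1.61 beside 1.78 for FARS2. The cytosolic gene had the larger change for arginine, threonine, glutamate and proline. EPRS is the cytosolic partner for both glutamate and proline, so these pairs are not independent. Among the member rows, the mitochondrial share of summed synthetase FPKM was 8.49%, 6.26% and 10.6% in PEFs and 12.2%, 10.5% and 12.9% in piPSCs. These sums leave out AARS1, FARSB and SARS2 and count KARS and GARS as cytosolic only. The members hold no separate mitochondrial row for lysine or glycine, and GARS had a mean of 74 FPKM in PEFs and 105 FPKM in piPSCs. For the member rows the highest PEF value exceeded the lowest piPSC value by a small margin, and within each line the share was higher in the piPSCs. Whether that overlap holds with the left-out rows added is not given here. The differences between the paired genes were not tested.

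**Figure D3:**
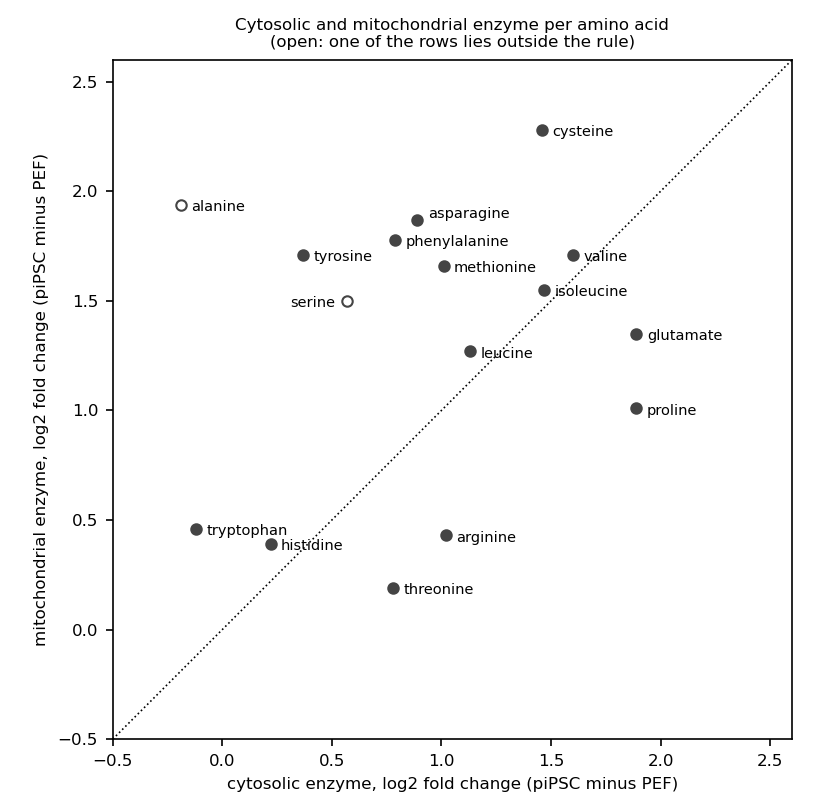
Log2 fold change of the cytosolic enzyme (x axis) and of the mitochondrial enzyme (y axis) for each of these amino acids, piPSC minus PEF. Points above the dotted line of equal change have the larger change in the mitochondrial gene, which holds for 10 of the 14 filled points. Open points (alanine and serine) use a row that the rule does not take.

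HARS and HARS2, for histidine in the cytosol and in mitochondria, start back to back, and neither passed the test. HARS2 read 4.83, 4.09 and 4.76 FPKM in PEFs and 6.49, 4.95 and 7.68 FPKM in piPSCs (log2 fold change 0.39, adjusted p = 0.152). The groups of HARS2 did not overlap, by 4.83 against 4.95 FPKM. The 51 bases between the RefSeq start of HARS and the start of HARS2 in the table (Sscrofa11.1, chr2:142401233-142401283, plus strand) are shown because both genes share them as their upstream sequence.
HARS to HARS2: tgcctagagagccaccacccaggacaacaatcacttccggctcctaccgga

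Synthetase promoters were read from the RefSeq genome of Sscrofa11.1 as 250 bases before to 50 bases after each start, which was done for 35 members (all but the AARS row and HARS2). The motif TGATGNAA, the composite site at which ATF4 and C/EBP proteins pair, was searched on both strands. It was present in 3 of the 35 member windows and in 2.79% of all 19559 windows. Its matches are printed with their flanks on the strand of the gene, with the motif in capitals (reverse complement in CARS, TARS and AARS1), because these are the members in which the letters of an ATF4 site were found, with AARS1 beside them. CARS is read at chr2:2163329-2163352 (minus strand), TARS at chr16:19455309-19455336 (plus strand), YARS at chr6:89118788-89118815 (minus strand) and AARS1 at chr6:13321505-13321532 (minus strand).
CARS: ggggcggtggTTGCATCAgattct
TARS: cgctttcctaTTGCATCAgctggcacga
YARS: cgagctcagcTGATGCAAcctaactgga
AARS1: ttcttggccaTTGCATCAgccaatttag

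Further motifs were searched in the same windows. The E-box CACGTG, a site that c-Myc and related factors are known to bind, was found in NARS and LARS among the members (2 of 35, against 7.91% of all windows) and in AARS1. These matches are shown since c-Myc is one of the factors used for reprogramming, at chr1:106933231-106933256 for NARS, chr2:147554342-147554367 for LARS and chr6:13321542-13321567 for AARS1, all on the minus strand with the motif in capitals. TTCNNNGAA, the interferon-gamma activated site, was present in 5 of 35 windows (7.12% of all), and the interferon-stimulated response element (ISRE) in 0 of 35 (3.58% of all). A match describes letters only, and no binding was measured here.
NARS: atgttaagacCACGTGtggaaaggca
LARS: gttcaacataCACGTGacgtcactac
AARS1: ccttacttgtCACGTGacacgtccca

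The synthetases known to respond to ATF4 gave 8 called of 12 tested with a median log2 fold change of 0.95, and the remaining cytosolic synthetases gave 4 of 6 with 0.75. These counts leave out AARS1, which belongs to the first list, and FARSB, which belongs to the second. With both added, the lists gave 8 of 13 with 0.89 and 5 of 7 with 0.79. After either rescaling the ATF4-responsive count was 5. Of the genes with a TGATGNAA match, CARS and TARS were called and YARS and AARS1 were not. ATF4 itself read 110, 132 and 120 FPKM in PEFs and 66.1, 126 and 87.4 FPKM in piPSCs (log2 fold change -0.42, SE 0.25, adjusted p = 0.195), and its groups overlapped.

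The broader integrated stress response list held genes that moved both ways. Of 30 tested genes, 5 were higher and 7 lower, beside 30.3% and 21.5% of all tested genes, with a median log2 fold change of -0.34. A replicate block by line gave 7 higher and 9 lower, beside 3483 and 2450 of the 12428 tested genes. The stress regulators NUPR1, CEBPB and TRIB3 fell, with log2 fold changes of -5.72, -3.54 and -2.80 (adjusted p = 0.000438, 0.00223 and 0.00125), and TRIB3 went from 13.1, 15.9 and 16.1 FPKM to 0.367, 2.39 and 1.6 FPKM. ASNS, asparagine synthetase and a classical ATF4 target, read 80.5, 142 and 38.9 FPKM in PEFs and 176, 231 and 177 FPKM in piPSCs (log2 fold change 1.33, adjusted p = 0.043). The call of ASNS was lost in 8 of 14 other settings, both rescalings among them, and stood under a replicate block by line (adjusted p = 0.0281). DDIT3, which encodes CHOP, stood at -0.29 (adjusted p = 0.386), and its model overlaps that of MARS over 4737 bases on the opposite strand. EIF2AK4, the kinase GCN2 that senses uncharged transfer RNA, stood at 0.73 (adjusted p = 0.0514), and a replicate block by line brought the adjusted p to 0.0462.

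The library of line 7 was the highest of its group in both states for 7 of the 36 members (11.6% of tested genes), namely WARS, CARS, GARS, SARS, TARS, KARS and AIMP1, a pattern noticed after the values were seen. The order of lines 5 and 8 changed between the states in WARS, GARS, SARS and TARS. Of these, 5 belong to the 12 ATF4-responsive synthetases, and 0 were mitochondrial. In the stress response list the same held for 10 of 30 genes, among them ASNS, ATF4, CHAC1 and the serine pathway genes PHGDH and PSAT1. PHGDH read 33.5, 134 and 28.7 FPKM in PEFs and 74.2, 220 and 55.8 FPKM in piPSCs, so line 7 stood apart in both states. For TARS the margin was small, at 26.8 against 24.5 FPKM in PEFs and 44.6 against 43.5 FPKM in piPSCs. Differences between the lines were not tested.

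**Figure D4:**
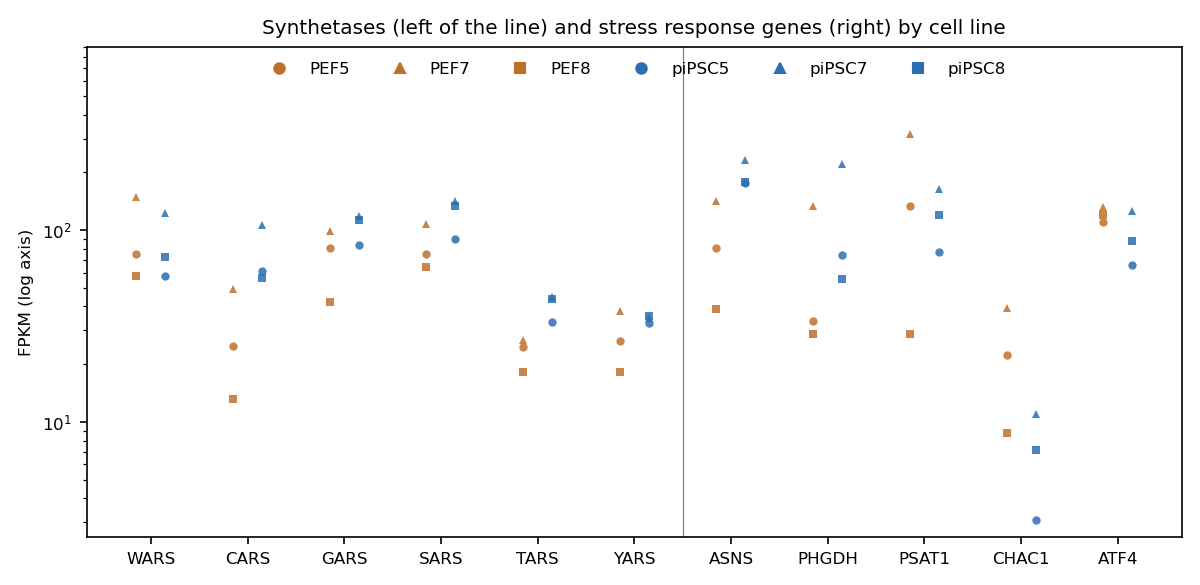
FPKM (log axis) of 6 ATF4-responsive synthetases and 5 integrated stress response genes in each library, PEFs in orange and piPSCs in blue. Triangles (line 7) are the highest of both groups in every gene shown except YARS, where piPSC7 at 34.9 FPKM is just under piPSC8 at 35.6 FPKM; the genes were chosen for display after their values were seen.

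Other genes that make, charge or use transfer RNA were mostly higher as well. Of the charging accessory list, which holds editing and amidation enzymes and EEF1E1, 7 of 11 tested genes were higher and 0 lower (median log2 fold change 0.97). Over all tested genes the shares were 30.3% and 21.5%. AARSD1, an editing protein for mischarged alanine transfer RNA, rose by 1.83, and DTD1, which removes D-amino acids from transfer RNA, by 1.76 (adjusted p = 0.000438 and 0.00209). QRSL1 and GATB, which form mitochondrial glutaminyl transfer RNA together with GATC in place of a separate synthetase, rose by 1.06 and 0.94, and GATC stood at 0.38 (adjusted p = 0.173); these were chosen for their role after their values were seen.

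RNA polymerase III, which transcribes transfer RNA genes, and its factors had 13 of 20 tested genes higher and 1 lower (median 0.83). Over all tested genes the shares were 30.3% and 21.5%. POLR3G, the subunit form known from pluripotent cells, rose from 3.18 ± 0.659 to 19.8 ± 8.88 FPKM (log2 fold change 2.23, adjusted p = 0.00275). BDP1, a subunit of the initiation factor TFIIIB, rose by 2.12. BRF2, an alternative TFIIIB subunit used at other promoters than those of most transfer RNA genes, fell by 3.14. Of the transfer RNA maturation list, 12 of 23 were higher and 1, TSEN34, lower (median 0.78). With equal sums per library 7 of the 23 were higher, beside 21.1% of all tested genes. ELAC2, which trims the 3′ end, POP1, a protein of RNase P, and XPO5, an export receptor, rose by 2.79, 2.67 and 1.73. XPOT, another export receptor of the list, rose by 1.06 (adjusted p = 0.019), and was named after its values were seen. TSEN34 missed the threshold under a replicate block by line (adjusted p = 0.0533).

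Of the list of translation elongation factors, some of which carry charged transfer RNA to the ribosome or move it on, 9 of 10 tested were higher and 1 lower. The median log2 fold change was 1.50, and over all tested genes 30.3% were higher and 21.5% lower. TUFM and GFM1, both mitochondrial, rose by 2.19 and 1.94 (adjusted p = 0.000296 and 0.000923). EEF1A2, the form typical of muscle and neurons, read 6.51, 4.7 and 103 FPKM in PEFs and 0.387, 0.245 and 0.0203 FPKM in piPSCs (log2 fold change -3.77, adjusted p = 0.0237), and PEF8 was far above the other PEF lines. Its call was lost with limma's voom on recovered fragments and without any one piPSC library. EEF1A1 was not analysed here.

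**Figure D5:**
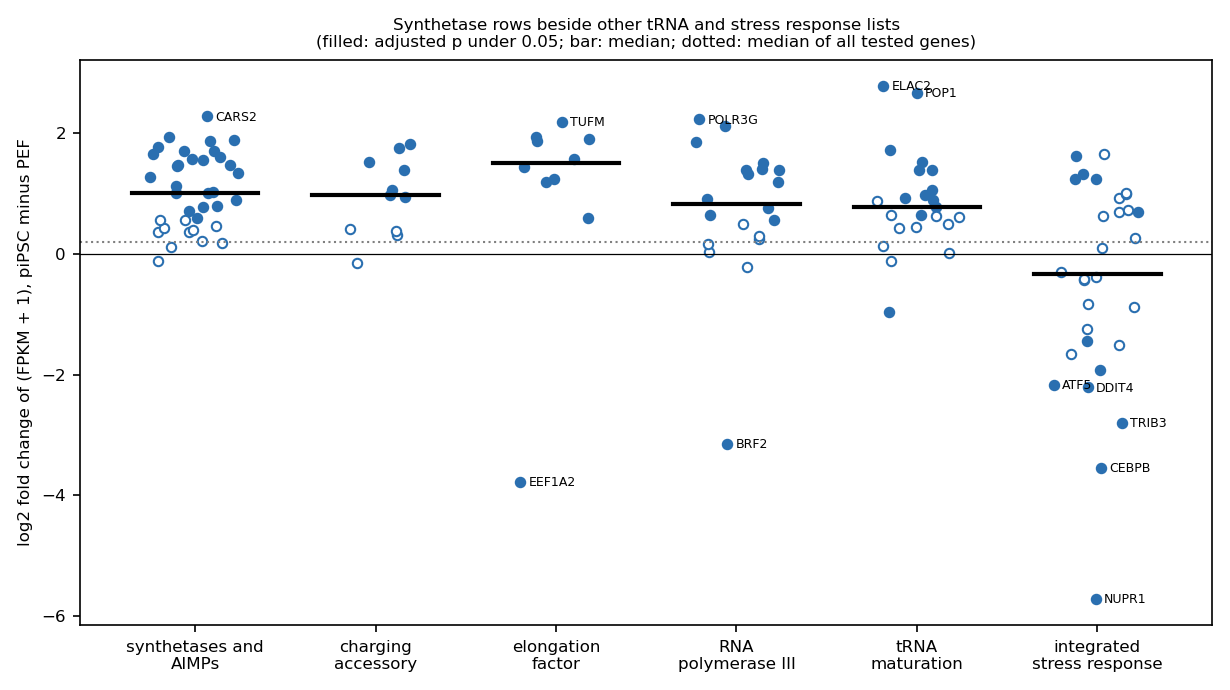
Log2 fold change of (FPKM + 1), piPSC minus PEF, of every tested gene in the member list and 5 further lists. Filled points have an adjusted p under 0.05, black bars are list medians and the dotted line is the median of all tested genes. The members and the 4 lists on transfer RNA and elongation have medians from 0.78 to 1.50, and the integrated stress response list has a median of -0.34.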

How the data were processed

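RNA of 3 PEF lines and 3 piPSC lines was sequenced in poly-A libraries read from both ends over 150 bp. The authors deposited FPKM values per gene; HISAT2 2.1.0, HTSeq 0.6.0 and Bowtie2 2.2.3 and the build Sscrofa11.1 are named in the submitters' processing notes, and strand setting, annotation release and treatment of shared reads are not given in the sources used here. Values of 1 member are not reported here by name, and it enters only counts, medians and sums over lists. Fragments were recovered as whole multiples of 1 fragment per gene (tolerance 1e-05 fragments plus 1e-08 per fragment) for 18007 genes. Zero fragments allow up to 3, for counting error only.

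Groups were compared with limma 3.58.1 in R 4.3.3 (lmFit, eBayes with trend) on log2(FPKM + 1) over 12428 genes with a mean of at least 0.5 FPKM, two-sided, with Benjamini-Hochberg adjustment over all of them. The fit was tested on simulated data. An exact permutation test of 3 against 3 cannot give a p under 0.1 and was not used. Tables and promoter windows were made in Python 3.11.15 with pandas 2.3.3 and numpy 2.4.6. Of the table's rows, 3375 are listed by identifier only; AARS1, FARSB and SARS2 were named from a RefSeq gene table or position.

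Line numbers pair the libraries, because like-numbered PEFs and piPSCs are the same cell line. Deviations from group means correlated at 0.0921, 0.0946 and 0.08 within lines 5, 7 and 8 and at -0.121 to 0.0553 between lines.

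The members and the gene lists were chosen with earlier results of these data known. The genes named by rule were the 8 members with the largest and the 8 with the smallest changes, the scaffolds, the phenylalanine subunits, WARS and the untested row, all with values per library, and from each further list the 3 largest called changes plus ATF4, ASNS, DDIT3, EEF1E1 and EIF2AK4, with log2 fold changes and in part with values per library. Other genes given per library, CARS, AARS1 and PHGDH among them, were chosen after their values were seen. Alternatives were both rescalings, a replicate block by line, 0.1 as pseudocount, no filter, a mean of at least 1 FPKM, no trend, voom on recovered fragments and each library left out; leaving out whole lines and adding the 3 identifier rows were chosen after seeing the data.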

Additional observations from a re-analysis of the deposited data

How the results depend on the processing

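No setting called a member lower in piPSCs, and the count of higher members stayed between 19 and 27 of those tested under planned settings and with the 3 identifier rows. It was 24 with the replicate block and without a filter, 20 with median ratios, 19 with equal sums, 21 to 26 without single libraries, and 17, 21 and 18 without lines 5, 7 and 8 (chosen after seeing the data). The median log2 fold change of the members lay between 0.89 and 1.15 without single libraries. The block, which follows the pairing of lines, took the call from LARS alone among the members. The cause of these losses was not tested; fewer samples entered the fits that leave libraries out.

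Of all 12428 tested genes, 3483 were higher with the replicate block and 2737 to 3588 without single libraries. Without lines 5, 7 and 8, 1768, 2600 and 2935 were higher, and with median ratios and equal sums 2826 and 2627. Without a filter, 3573 of 18007 were higher. List counts of higher genes moved by over 1.5 times in the following cases. Cytosolic synthetases (12) came to 7 under equal sums, 7 without line 5 and 7 without line 8, and to 9 to 13 without single libraries. The multisynthetase complex (8) came to 5 under either rescaling and without each line, and to 5 to 8 without single libraries. Free cytosolic synthetases (5) came to 3 and 2 after rescaling, 2 without line 5 and 2 without line 8, and 3 to 6 without single libraries. ATF4-responsive synthetases (8) came to 5 after either rescaling, 5 without line 5 and 5 without line 8, and 5 to 9 without single libraries, and the other cytosolic synthetases (4) to 2 under equal sums, 2 without line 5 and 2 without line 8. The integrated stress response list (5) came to 3 and 2 after rescaling, 2 without line 5 and 3 without line 8, and 3 to 7 without single libraries. RNA polymerase III (13) came to 7 and 8 without lines 5 and 8. The transfer RNA maturation list (12) came to 7 under equal sums and to 6 and 7 without lines 5 and 8. Its 1 lower gene, TSEN34, was lost with the replicate block (0), without PEF replicate 7, piPSC replicate 5 or piPSC replicate 7 (0 to 1 without single libraries) and without lines 5 and 7 (0 and 0). Elongation factors (9) came to 5 without line 5, and their 1 lower gene, EEF1A2, was lost with voom (0), without each piPSC library (0 to 1) and without lines 5 and 7 (0 and 0).

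Without single libraries, WARS ran from -0.42 to 0.27 and TARS2 from -0.06 to 0.35. The sign of WARS turned to 0.27 without PEF replicate 7, 0.12 without piPSC replicate 5 and 0.02 without line 5. QARS turned to -0.15 and -0.20, HARS to -0.04 and -0.09 and TARS2 to -0.05 and -0.10 in the median ratio and equal sums settings, and TARS2 to -0.06 without PEF replicate 7. None of these 4 passed the test in any setting. Members higher in all 3 lines numbered 26 after either rescaling, and those at least 2-fold higher 9. The matching shares of all tested genes are not given here. For AIMP2, with 53 to 79 fragments per library, depth limits the precision.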
